A study of Mus musculus with 18 samples.

Results

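A set of 10 genes that textbooks assign to mural cells and fibroblasts was followed through RNA-seq of sorted mouse thymic epithelium. The genes were chosen by symbol from the count table: Tagln, Acta2, Myh11, Rgs5, Pdgfrb, Pdgfra, Col1a1, Col1a2, Col3a1 and Dcn. They were 10 of 27179 genes in the table, and 10 of the 10 passed the filter on low counts that left 19364 genes for testing. The name of the set refers to where these genes are usually read, not to cells that were sorted here.

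Mural cells are the pericytes and smooth muscle cells that wrap blood vessels, and they contract through actin and myosin filaments whose genes are driven by serum response factor (SRF) and its cofactors. Fibroblasts secrete the fibrillar collagens and the small proteoglycans that bind them, and both cell types depend on platelet-derived growth factor (PDGF) signals received by Pdgfrb or Pdgfra. In the thymus such mesenchyme surrounds the vessels, fills the capsule and septa, and supplies growth factors to the epithelium, and thymic epithelial cells can themselves transcribe some contractile and matrix genes.

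The libraries came from thymic epithelial cells of C57BL/6 mice, either wildtype (WT) or labelled as knockout (KO) for Kat7, which encodes a histone acetyltransferase. Cortical cells (cTEC) and medullary cells with high (mTEChi) or low (mTEClo) MHC class II were sorted from each of 6 mouse pools, WT pools 1, 2 and 3 and KO pools 4, 5 and 6. This gave 18 libraries in 6 groups of 3. The Kat7 allele, the cells in which it was deleted, the age of the mice, the number of mice per pool and the days of sorting do not appear in the labels, and genotype and any batch of the pools cannot be told apart. Levels are CPM, the count of a gene scaled to a common library size after TMM scaling, and levels of different genes are compared only after division by the gene length in the count files (CPM per kb). Adjusted p-values are from edgeR's quasi-likelihood test with Benjamini-Hochberg adjustment over all 19364 genes, a call is an adjusted p below 0.05, and fold changes are log2 values with their SE.

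RefSeq promoter windows of build GRCm38.p6, read for 250 bases before the start, were found for 5 of the 10 genes, namely Acta2, Rgs5, Pdgfra, Col1a2 and Col3a1. They are shown because these genes moved in different directions between WT and KO libraries, and Acta2 is a textbook target of SRF. Matches to 4 motifs were searched on both strands and are in capitals: the CArG box that SRF binds, a CArG-like box with at most 1 C or G in its A/T core, TATAAA, and CCAAT, which reads ATTGG on the other strand. Every CArG box is also a CArG-like box. Where the window touches an untranslated region annotated in GENCODE M21, only 30 bases around each match are printed.
Acta2, first box, chr19:34255438-34255467, minus strand: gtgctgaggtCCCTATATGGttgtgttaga
Acta2, second box, chr19:34255388-34255417, minus strand: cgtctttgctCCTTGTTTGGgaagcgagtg
Rgs5, chr1:169655251-169655500, plus strand: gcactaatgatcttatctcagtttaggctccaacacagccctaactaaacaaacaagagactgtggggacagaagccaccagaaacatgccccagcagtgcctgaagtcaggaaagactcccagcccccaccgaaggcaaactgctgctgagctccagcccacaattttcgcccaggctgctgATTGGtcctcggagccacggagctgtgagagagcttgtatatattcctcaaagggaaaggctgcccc
Col1a2, CArG-like box, chr6:4505380-4505409, plus strand: taaagtgcttCCAAACTTGGcaagggcgag
Col1a2, CCAAT, chr6:4505496-4505525, plus strand: aaaaagaatggaaCCAATttaagaagcccc
Col3a1, chr1:45311288-45311537, plus strand: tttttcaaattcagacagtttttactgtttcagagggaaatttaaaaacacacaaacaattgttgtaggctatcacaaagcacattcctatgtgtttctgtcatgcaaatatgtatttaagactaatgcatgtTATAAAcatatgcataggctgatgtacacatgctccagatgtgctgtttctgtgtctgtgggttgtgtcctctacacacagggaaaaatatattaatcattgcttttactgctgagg

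The Acta2 window held 2 CArG-like boxes, at 84 to 75 and at 34 to 25 bases before the start that this window used. That start and both boxes lie inside the Acta2 interval given below, chr19:34240336-34255585, so the boxes are not upstream of the whole annotated gene. The Rgs5 window held a CCAAT match on the opposite strand at 67 to 63 bases. In Col1a2 a CArG-like box lay at 228 to 219 bases and a CCAAT match at 109 to 105 bases, and in Col3a1 a TATAAA match lay at 117 to 112 bases. The Pdgfra window held none of the 4 motifs. Among 32851 windows of this length from 27025 genes, 1.47% held a CArG box, 8.59% a CArG-like box, 12.4% TATAAA and 33.8% CCAAT, so these matches describe letters and not binding.

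Kat7 itself lay between 38.6 and 83.4 CPM in the 9 WT libraries and between 0.765 and 4.16 CPM in the 9 KO libraries, which did not overlap. Library totals ran from 3554089 to 20054360 counts. The summed level of 10 epithelial genes, among them the pan-epithelial Epcam and the keratin gene Krt18, averaged 4491 CPM in WT and 7573 CPM in KO mTEChi, where 8 of 10 were called higher and none lower, 7541 and 9156 CPM in mTEClo, with 7 higher and none lower, and 7530.3 and 8525 CPM in cTEC, with 4 higher and 2 lower. Over all genes, 17.1%, 18.9% and 22.3% were called higher and 19.3%, 15.8% and 26.7% lower in KO mTEChi, mTEClo and cTEC. The part of the epithelial shift in the changes of the 10 genes was not tested. Markers of other cell types were present too, up to 1616 CPM for the macrophage and dendritic cell list in WT mTEChi, of which Lyz2 made up 1447 CPM. The sum over 14 endothelial markers averaged from 28.4 CPM in KO cTEC to 180 CPM in KO mTEChi. Levels within this list differed. The endothelial cadherin Cdh5 was at or below 0.950 CPM in all libraries and the endothelial factor Erg at 0 in the 3 KO cTEC libraries. Tek averaged 60.2 CPM in KO mTEChi and Esam 21.2 CPM in WT mTEClo, each the highest marker there. In cTEC Tek fell from 24.4 ± 9.61 to 3.77 ± 0.258 CPM (SD, adjusted p = 1.22e-08).

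The 10 genes did not move as a block when Kat7 was lost. Dcn, the small proteoglycan decorin, rose in all 3 subsets, Rgs5, a pericyte regulator of G-protein signalling, fell in all 3, and Tagln, the actin-binding protein transgelin, fell in mTEClo and cTEC. Acta2, smooth muscle alpha-actin, rose in mTEChi and cTEC and fell in mTEClo. In mTEChi 2 of the 10 genes were called higher and 3 lower, beside 17.1% and 19.3% of all genes. In mTEClo 3 were higher and 4 lower, beside 18.9% and 15.8%. In cTEC 2 were higher and 7 lower, beside 22.3% and 26.7%, so that calls in cTEC were mostly decreases. In bulk samples such as these, fewer cells that transcribe a gene and less RNA of it per cell cannot be told apart.

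**Figure D1:**
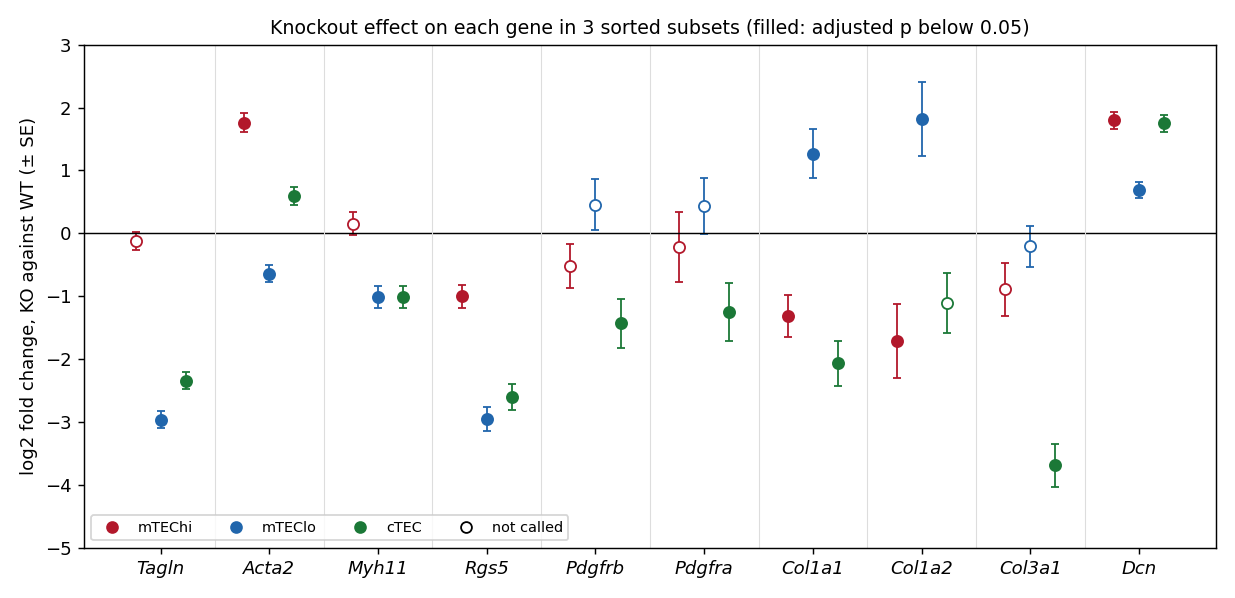
The log2 fold change of KO against WT (vertical axis, bars ± SE from the fit) is drawn for each of the 10 genes in mTEChi (red), mTEClo (blue) and cTEC (green), and filled points have an adjusted p below 0.05. Dcn lies above 0 and Rgs5 below 0 in all 3 subsets, Acta2 lies below 0 in mTEClo and above 0 in the other subsets, and Col3a1 in cTEC is the lowest point at -3.69.

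Tagln (Entrez 21345, chr9:45929628-45936058) encodes transgelin, which cross-links actin in contracting cells. In mTEClo it was at 404, 339.6 and 439 CPM in WT pools 1 to 3 and at 55.4, 51.4 and 45.1 CPM in KO pools 4 to 6. In cTEC the WT libraries were at 234, 259 and 303 CPM and the KO libraries at 60.4, 50.8 and 45.5 CPM. The highest KO library was thus far below the lowest WT library in both subsets. The log2 fold change was -2.96 ± 0.14 in mTEClo (adjusted p = 2.66e-11) and -2.35 ± 0.14 in cTEC (adjusted p = 8.04e-11). In mTEChi the gene was already low, at 31.3, 32.1 and 29.7 CPM in the WT libraries and at 32.6, 26.9 and 26.2 CPM in the KO libraries. Those libraries overlapped, and the difference of -0.12 ± 0.15 was not called (adjusted p = 0.546). By mean level WT mTEClo stood first, then WT cTEC, then KO cTEC and KO mTEClo, whose libraries overlapped, and then the overlapping mTEChi groups.

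The kits used do not record strand, and 62.4% of the exon bases of Tagln are shared with the antisense gene Gm48529 and 5.43% with Pcsk7 in GENCODE M21, so reads of these genes cannot be told apart there. For Pdgfra 4.55% of the exon bases are shared with the antisense gene Gm42802.

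Acta2 (Entrez 11475, chr19:34240336-34255585), whose 2 CArG-like boxes are printed above, encodes the actin of smooth muscle and of activated fibroblasts. In mTEChi it was at 80.0, 72.0 and 70.6 CPM in the WT libraries and at 282, 227 and 243 CPM in the KO libraries. In cTEC it was at 239.7, 259.9 and 223 CPM in the WT libraries and at 367, 385 and 336 CPM in the KO libraries. Every KO library was above every WT library in these subsets, with log2 fold changes of 1.76 ± 0.14 (adjusted p = 5.56e-08) and 0.59 ± 0.14 (adjusted p = 0.00131). In mTEClo the order was the opposite, at 482, 350.2 and 464 CPM in the WT libraries and at 336, 257 and 239 CPM in the KO libraries. There the highest KO library, pool 4, was just below the lowest WT library, pool 2, and the log2 fold change was -0.64 ± 0.14 (adjusted p = 0.00107). WT mTEChi had the lowest level of the 6 groups, and the libraries of KO mTEClo, KO mTEChi and WT cTEC overlapped in the middle of the order. Reads shared with the near-identical actins Actg2 and Acta1 are uncertain between these genes. Actg2 averaged at most 7.02 CPM and Acta1 at most 25.1 CPM in any group.

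Myh11 (Entrez 17880, chr16:14194527-14292188) encodes the heavy chain of smooth muscle myosin, the motor that pulls on actin. In mTEClo it was at 96.3, 82.1 and 98.0 CPM in the WT libraries and at 58.8, 43.7 and 34.6 CPM in the KO libraries. In cTEC it was at 166, 111 and 108 CPM in the WT libraries and at 75.7, 52.3 and 62.2 CPM in the KO libraries. Neither pair overlapped, and the log2 fold changes were -1.01 ± 0.18 (adjusted p = 0.000210) and -1.02 ± 0.18 (adjusted p = 9.57e-05). In mTEChi the WT libraries at 84.4, 79.2 and 76.9 CPM lay just below the KO libraries at 95.3, 87.0 and 85.1 CPM. That difference of 0.15 ± 0.18 was not called (adjusted p = 0.526).

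**Figure D2:**
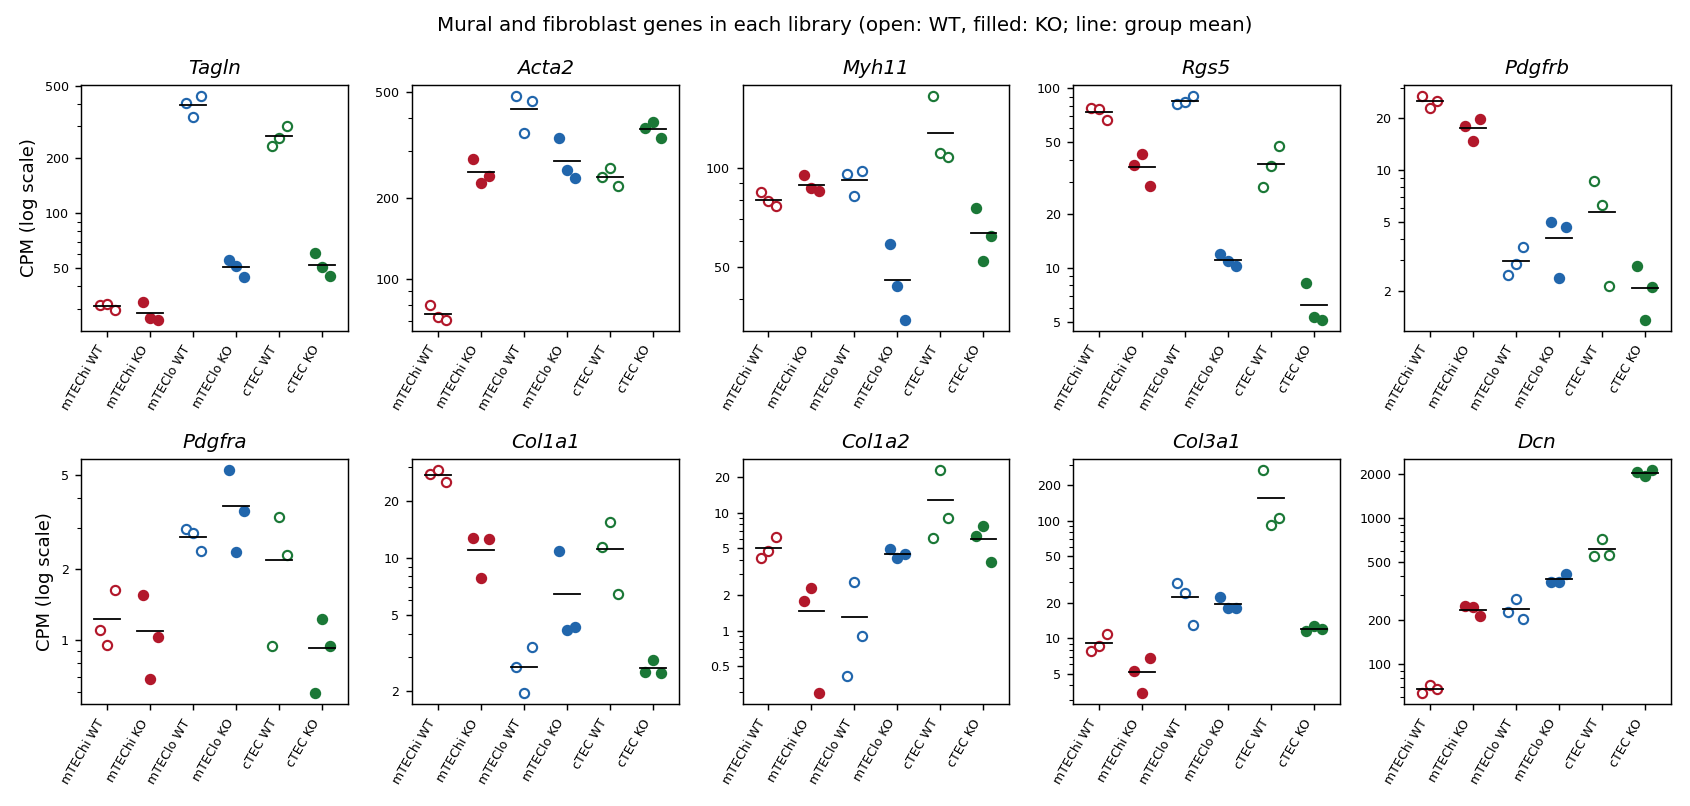
CPM on log axes is plotted for the 10 genes in each of the 18 libraries, with WT as open and KO as filled circles and a line at each group mean. Tagln and Rgs5 show the KO mTEClo and cTEC libraries far below WT, Dcn shows every KO group above its WT group, and Pdgfra and Col1a2 show wide scatter at low levels.

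Per kb of gene length, the 3 contractile genes changed their proportions. The ratio of Acta2 to Tagln was 0.974 ± 0.0776 (SD, n = 3) in WT mTEClo and 0.821 ± 0.144 in WT cTEC, so both transcripts had like levels there. In the KO the ratio was 4.86 ± 0.488 in mTEClo and 6.25 ± 0.728 in cTEC, with the lowest of these KO libraries at 4.45. In mTEChi it was 2.13 ± 0.140 in WT and 7.84 ± 0.385 in KO. All KO libraries had a higher ratio than all WT libraries, while the 2 genes moved in the same direction in mTEClo and in opposite directions in cTEC. Myh11 stayed the least abundant of the 3 per kb in every group, with means between 6.89 CPM per kb in KO mTEClo and 19.4 CPM per kb in WT cTEC.

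**Figure D3:**
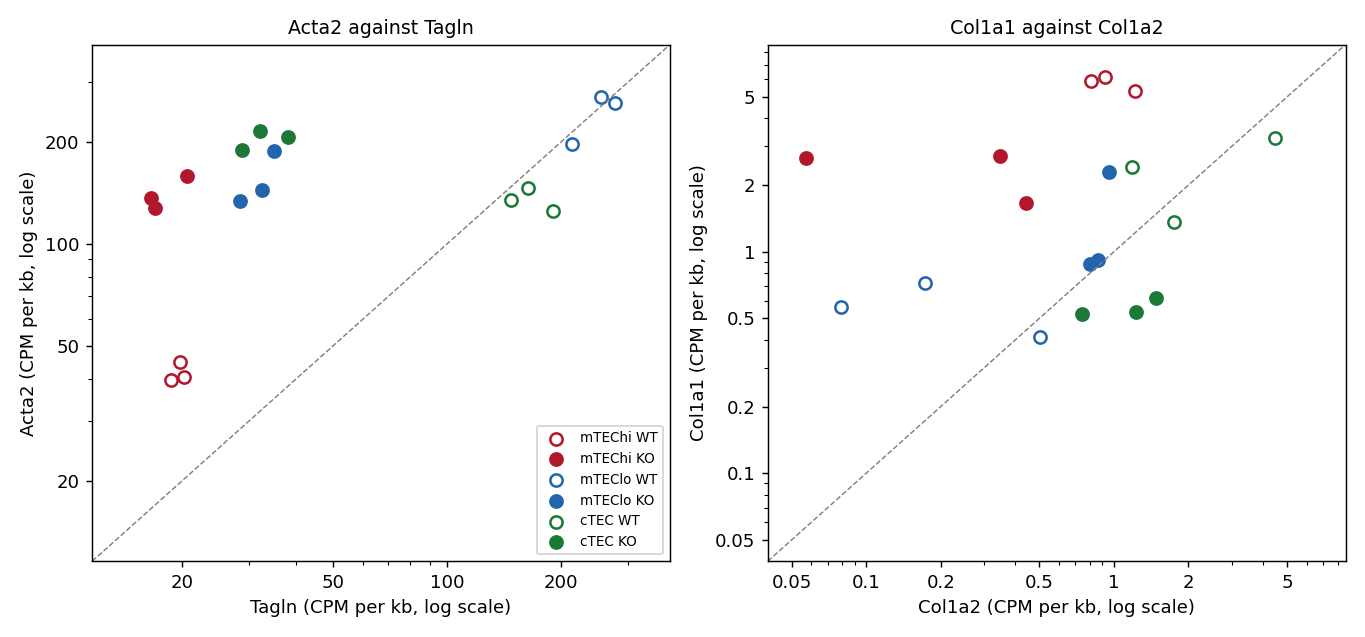
Each point is 1 of 18 libraries, with CPM per kb on log axes, open for WT and filled for KO, and the dashed line marks equal levels. In the left panel WT mTEClo and cTEC lie near the line between Acta2 and Tagln while all KO libraries lie above it, and in the right panel mTEChi lies above the line between Col1a1 and Col1a2.

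Rgs5 (Entrez 19737, chr1:169655501-169695813) is a classical pericyte gene that damps G-protein signals. In mTEClo the WT libraries were at 82.3, 83.5 and 90.6 CPM and the KO libraries at 11.97, 10.9 and 10.2 CPM. In cTEC they were at 28.2, 37.1 and 47.9 CPM in the WT libraries and at 8.25, 5.31 and 5.15 CPM in the KO libraries. In mTEChi they were at 77.5, 76.4 and 66.7 CPM in the WT libraries and at 37.5, 43.0 and 28.7 CPM in the KO libraries. No KO library reached the lowest WT library of its subset. The log2 fold change was -2.95 ± 0.20 in mTEClo (adjusted p = 1.35e-09), -2.61 ± 0.20 in cTEC (adjusted p = 3.29e-09) and -1.004 ± 0.19 in mTEChi (adjusted p = 0.000385). WT mTEClo had the highest level and KO cTEC the lowest, and the only overlapping neighbours in the order were WT cTEC and KO mTEChi.

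The PDGF receptors were low. Pdgfrb (Entrez 18596), the receptor of pericytes, had its highest levels in mTEChi, at 26.9, 23.05 and 25.2 CPM in the WT libraries and at 18.0, 14.7 and 19.9 CPM in the KO libraries. These libraries did not overlap, yet the log2 fold change of -0.51 ± 0.35 was not called (adjusted p = 0.259). With only the mTEChi libraries in the fit it was called (adjusted p = 0.0214). In cTEC the levels were 8.66, 6.26 and 2.13 CPM in the WT libraries and 2.77, 1.36 and 2.10 CPM in the KO libraries, so WT pool 3 fell among the KO libraries. The decrease of -1.43 ± 0.39 was called (adjusted p = 0.00469) and ran from -1.83 to -1.01 when single libraries were left out. In mTEClo the WT libraries held 22 to 24 counts each and the KO libraries 42 to 92, at 2.45 to 3.57 and 2.37 to 5.00 CPM, and the difference of 0.45 ± 0.41 was not called (adjusted p = 0.419).

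Pdgfra (Entrez 18595, chr5:75151322-75198206), the receptor that marks fibroblasts, had the lowest level per kb of the 10 genes in all groups except WT mTEClo, where Col1a2 was lower, with group means from 0.137 to 0.552 CPM per kb. WT mTEChi libraries held 4 to 12 counts. In cTEC it was at 0.946, 3.34 and 2.29 CPM in the WT libraries and at 0.594, 1.23 and 0.946 CPM in the KO libraries. WT pool 1 overlapped the KO libraries, and the log2 fold change of -1.25 ± 0.47 was called (adjusted p = 0.0319). The call ended without WT pool 2 (-0.82, adjusted p = 0.178), without KO pool 4 (-1.04, adjusted p = 0.117), without KO pool 6 (-1.27, adjusted p = 0.0728) and with only the cTEC libraries in the fit (adjusted p = 0.0956). In mTEChi and mTEClo the WT and KO libraries overlapped and the differences of -0.21 ± 0.55 and 0.44 ± 0.45 were not called (adjusted p = 0.783 and 0.484).

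Col1a1 (Entrez 12842, chr11:94936224-94953042) and Col1a2 (Entrez 12843, chr6:4505618-4541543) encode the chains of collagen I, the main fibre of connective tissue. Col1a1 in mTEChi was at 27.7, 29.0 and 25.1 CPM in the WT libraries and at 12.8, 7.82 and 12.5 CPM in the KO libraries. In cTEC it was at 11.4, 15.4 and 6.44 CPM in the WT libraries and at 2.51, 2.91 and 2.47 CPM in the KO libraries. No KO library reached a WT library in either subset, and Col1a1 fell by 1.32 ± 0.34 (adjusted p = 0.00548) and by 2.07 ± 0.36 (adjusted p = 8.45e-05) on the log2 scale. In mTEClo the direction was the reverse, at 2.66, 1.94 and 3.42 CPM in the WT libraries and at 10.8, 4.17 and 4.33 CPM in the KO libraries. KO pool 4 stood above the other KO libraries, and the increase of 1.26 ± 0.39 (adjusted p = 0.0158) lost its call without that pool (0.68, adjusted p = 0.157) and without WT pool 2 (1.10, adjusted p = 0.0740).

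Col1a2 was at 4.15, 4.75 and 6.24 CPM in WT mTEChi and at 1.79, 2.28 and 0.294 CPM in KO mTEChi, the last value resting on 2 counts in pool 6. The libraries did not overlap and the log2 fold change was -1.71 ± 0.59 (adjusted p = 0.0287). This call ended without WT pool 2 (adjusted p = 0.0562), WT pool 3 (adjusted p = 0.105), KO pool 4 (adjusted p = 0.0585) or KO pool 6 (adjusted p = 0.107). In mTEClo Col1a2 was at 0.409, 2.59 and 0.892 CPM in the WT libraries and at 4.94, 4.11 and 4.44 CPM in the KO libraries, all KO libraries being above all WT libraries. The increase of 1.82 ± 0.59 (adjusted p = 0.0224) lost its call without WT pool 1 (1.34, adjusted p = 0.112), WT pool 3 (1.65, adjusted p = 0.0861) or KO pool 4 (1.75, adjusted p = 0.0514). Without WT pool 2, the highest WT library, it was 2.86. Both chains of collagen I were therefore called higher in KO mTEClo, with 2 libraries for Col1a1 and 3 for Col1a2 whose removal ended the call.

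In cTEC Col1a2 was at 6.11, 23.03 and 8.998 CPM in the WT libraries and at 6.34, 7.64 and 3.84 CPM in the KO libraries. WT pool 2 stood apart, the other WT libraries were close to the KO range, and the difference of -1.11 ± 0.48 was not called (adjusted p = 0.0617). It was called without WT pool 1 (-1.43, adjusted p = 0.0157), without WT pool 3 (-1.31, adjusted p = 0.0261), with RLE scaling (adjusted p = 0.0499), without the filter (adjusted p = 0.0441) and at equal depth (-1.50, adjusted p = 0.00911). Without WT pool 2 it was -0.35 (adjusted p = 0.561). The collagen I protein is built from more Col1a1 than Col1a2 chains, and per kb the ratio of their transcripts was 6.11 ± 1.52 (SD, n = 3) in WT mTEChi, 1.18 ± 0.735 in WT cTEC and 0.517 ± 0.161 in KO cTEC, where the highest library was at 0.703.

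Col3a1 (Entrez 12825, chr1:45311538-45349706) encodes collagen III, which co-assembles with collagen I in vessels and soft tissue. In cTEC it was at 270.3, 91.6 and 106 CPM in the WT libraries and at 11.62, 12.6 and 12.04 CPM in the KO libraries. The WT libraries differed widely, with pool 1 well above the others, while the KO libraries were close together and all far lower. The log2 fold change was -3.69 ± 0.34 (adjusted p = 3.83e-08) and ran from -3.96 to -3.03 when single libraries were left out, with -3.03 reached without WT pool 1. In mTEChi the levels were 7.75, 8.55 and 10.8 CPM in the WT libraries and 5.26, 3.42 and 6.77 CPM in the KO libraries, which did not overlap. That difference of -0.89 ± 0.42 was not called in the fit of all libraries (adjusted p = 0.105) and was called with only the mTEChi libraries in the fit (adjusted p = 0.0196). In mTEClo the WT libraries at 29.8, 24.2 and 13.1 CPM enclosed the KO libraries at 22.4, 18.2 and 18.1 CPM, and the difference was -0.21 ± 0.33 (adjusted p = 0.661).

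Dcn (Entrez 13179, chr10:97479500-97518163) encodes decorin, which binds collagen fibrils and restrains growth factors of the TGF-beta family. In cTEC it was at 549.5, 722 and 562 CPM in the WT libraries and at 2064, 1950.5 and 2145 CPM in the KO libraries. In mTEChi it was at 63.1, 72.1 and 68.1 CPM in the WT libraries and at 251, 247 and 212 CPM in the KO libraries. In mTEClo it was at 226, 282 and 205 CPM in the WT libraries and at 363, 365 and 415 CPM in the KO libraries. Every KO library was above every WT library of its subset. The log2 fold change was 1.75 ± 0.13 in cTEC (adjusted p = 1.95e-09), 1.80 ± 0.14 in mTEChi (adjusted p = 2.45e-08) and 0.68 ± 0.13 in mTEClo (adjusted p = 0.000342). Within each genotype the level rose from mTEChi over mTEClo to cTEC, and the only neighbours in the order of the 6 groups that overlapped were WT mTEClo and KO mTEChi.

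Decorin changed the weight of the whole set. The 10 genes took 0.151% ± 0.00937 (SD, n = 3) of all counts in WT cTEC and 0.243% ± 0.00902 in KO cTEC. Dcn made up 41.5% of those counts in WT and 80.1% in KO, and without Dcn the share was 0.0885% in WT and 0.0483% in KO. In mTEClo the share fell from 0.128% ± 0.00971 to 0.0815% ± 0.00725, and in mTEChi it rose from 0.0398% ± 0.00113 to 0.0673% ± 0.00533. The set was therefore a minor part of the RNA in all 6 groups, and its summed level followed Dcn in cTEC. Per kb, Dcn in KO cTEC reached 985 ± 47.0 CPM per kb while Col1a1 was at 0.559 ± 0.0520 CPM per kb.

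The subsets were next compared within each genotype. In WT, Tagln, Acta2, Col3a1 and Dcn were lower in mTEChi than in mTEClo and Pdgfrb, Col1a1 and Col1a2 were higher, 7 of the 10 genes beside 59.3% of all genes. The largest differences were -3.67 ± 0.15 for Tagln (adjusted p = 5.42e-13), 3.35 ± 0.39 for Col1a1 (adjusted p = 4.64e-07) and 3.09 ± 0.41 for Pdgfrb (adjusted p = 2.24e-06). The Col1a2 difference of 2.01 lost its call without WT mTEClo pool 1 (adjusted p = 0.0553) and was 3.04 without WT mTEClo pool 2. Against cTEC, WT mTEChi had Rgs5, Pdgfrb and Col1a1 higher and 6 genes lower, 9 of 10 beside 64.4% of all genes, led by Col3a1 at -4.08 ± 0.37 (adjusted p = 1.19e-08) and Dcn at -3.17 ± 0.14 (adjusted p = 5.57e-13). The Col1a2 call (adjusted p = 0.0293, with overlapping libraries) ended without mTEChi pool 1 (adjusted p = 0.0824), mTEChi pool 2 (adjusted p = 0.0851) or cTEC pool 2 (adjusted p = 0.316). Between WT mTEClo and cTEC, Tagln, Acta2 and Rgs5 were higher in mTEClo and the 3 collagen genes and Dcn higher in cTEC, 7 of 10 beside 27.4%. Without WT cTEC pool 1 the Col3a1 differences were -3.44 for mTEChi and -2.13 for mTEClo against cTEC. The Col1a2 difference between mTEClo and cTEC, -3.32 with all libraries, was -4.36 without mTEClo pool 2 and -2.57 without cTEC pool 2. Here the mouse pool as a block also called Myh11 lower in mTEClo (-0.46, adjusted p = 0.0158, against 0.0516 without the block).

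In the KO, 8 of 10 genes differed between mTEChi and mTEClo beside 45.3% of all genes. Myh11, Rgs5 and Pdgfrb were higher in mTEChi and Tagln, Pdgfra, Col1a2, Col3a1 and Dcn lower, while Acta2 was not called (-0.14 ± 0.14, adjusted p = 0.416) and its libraries overlapped. With the block Col1a1 was called higher as well (adjusted p = 0.0350). The Col1a2 call had an adjusted p of 0.0325 and ended without KO mTEChi pool 4 or 6, without any single KO mTEClo library, and at equal depth (adjusted p = 0.103). Between KO mTEChi and cTEC 9 of 10 differed beside 62.4%, with Dcn at -3.12 ± 0.14 (adjusted p = 1.92e-13) and Pdgfrb at 3.07 ± 0.39 (adjusted p = 1.17e-06). Among these, the Myh11 call ended without mTEChi pool 4 (adjusted p = 0.0529), cTEC pool 5 (adjusted p = 0.115) or cTEC pool 6 (adjusted p = 0.0579), and the Col3a1 call without mTEChi pool 5 (adjusted p = 0.0599).

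Between KO mTEClo and cTEC 6 of 10 genes differed beside 37% of all genes, Rgs5, Pdgfra and Col1a1 being higher and Acta2, Myh11 and Dcn lower in mTEClo. Tagln, which had differed in WT, stood at -0.04 ± 0.13 (adjusted p = 0.832) with overlapping libraries. Acta2 (adjusted p = 0.0295) lost its call without KO mTEClo pool 5 (adjusted p = 0.109) or 6 (adjusted p = 0.151), without KO cTEC pool 4 (adjusted p = 0.0871) or 5 (adjusted p = 0.101), and at equal depth (adjusted p = 0.0544). Myh11 (adjusted p = 0.0430) lost its call without KO mTEClo pool 5 (adjusted p = 0.112) or 6 (adjusted p = 0.226), without KO cTEC pool 4 (adjusted p = 0.246) or 6 (adjusted p = 0.0771), with RLE scaling (adjusted p = 0.0535), with DESeq2 (adjusted p = 0.0516) and with only these groups in the fit (adjusted p = 0.0518). Col1a1 lost its call without KO mTEClo pool 4 (adjusted p = 0.119) and at equal depth (adjusted p = 0.0643). With the mouse pool as a block, Pdgfrb (adjusted p = 0.0439) and Col3a1 (adjusted p = 0.0409) were also called higher in mTEClo.

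Whether the effect of the KO differed between subsets was tested as an interaction. Between mTEChi and mTEClo it differed for 7 of 10 genes beside 13.5% of all genes, most clearly for Tagln at 2.84 ± 0.20 (adjusted p = 2.05e-08) and Acta2 at 2.40 ± 0.20 (adjusted p = 2.07e-07). Between mTEChi and cTEC it differed for 5 of 10 beside 31.5%, and for Dcn the difference of 0.05 ± 0.18 was not called (adjusted p = 0.857). Between mTEClo and cTEC it differed for 7 of 10 beside 26%, with Col3a1 at 3.48 ± 0.46 (adjusted p = 1.40e-05) and Col1a1 at 3.33 ± 0.53 (adjusted p = 9.76e-05). The Tagln difference of -0.62 ± 0.18 (adjusted p = 0.0182) lost its call without WT mTEClo pool 3 (adjusted p = 0.0552), KO mTEClo pool 6 (adjusted p = 0.0577) or KO cTEC pool 4 (adjusted p = 0.0795), and that of Pdgfrb, 1.89 ± 0.56 (adjusted p = 0.0178), without WT cTEC pool 1 (adjusted p = 0.0549) or KO cTEC pool 5 (adjusted p = 0.0501). In the same comparison Rgs5 (-0.35 ± 0.27, adjusted p = 0.375) and Myh11 (adjusted p = 1.00) were not called. Single libraries moved the collagen differences by over 1.5 times, taken as folds before the log2, while the calls held. Without WT cTEC pool 1, Col3a1 was at 2.15 between mTEChi and cTEC and at 2.83 between mTEClo and cTEC. Without KO mTEClo pool 4, Col1a1 was at -1.98 between mTEChi and mTEClo. Without WT mTEClo pool 2, Col1a2 was at -4.55 between mTEChi and mTEClo and at 3.98 between mTEClo and cTEC, and at 2.17 in the latter without WT cTEC pool 2. These comparisons share groups with the tests above and are no independent evidence.

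Related genes in 6 lists were read beside the set. Over all genes, 17.1% were called higher and 19.3% lower in KO mTEChi, 18.9% and 15.8% in mTEClo, and 22.3% and 26.7% in cTEC. The counts of each list stand beside these shares, and a count near them is nothing particular to its list. Of 16 other smooth muscle contractile genes, 4 were higher and 6 lower in KO mTEChi, none higher and 11 lower in mTEClo, and 1 higher and 10 lower in cTEC. Their median log2 change was -0.51, -0.77 and -0.65, beside -0.11, 0.01 and -0.02 over all genes. Cald1, the actin-binding caldesmon, fell from 249 ± 31.5 to 35.9 ± 3.72 CPM (SD, n = 3) in cTEC (adjusted p = 1.62e-11), and Tpm2, a tropomyosin, from 412 ± 56.8 to 65.8 ± 21.9 CPM (adjusted p = 7.04e-10). In mTEClo Myl9, a myosin light chain, fell from 95.2 ± 20.3 to 21.04 ± 3.85 CPM (adjusted p = 8.12e-08) and Lmod1, leiomodin, from 31.3 ± 3.59 to 7.37 ± 0.497 CPM (adjusted p = 7.47e-07). These directions are those of Tagln in the same subsets, and Acta2 in cTEC moved the other way.

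Of 14 pericyte genes 3 were higher and 5 lower in KO mTEChi, 2 and 3 in mTEClo, and 1 and 3 in cTEC, with medians of -1.18, -0.52 and -0.06. Itga8, an integrin subunit, fell from 21.8 ± 1.71 to 1.64 ± 0.0965 CPM in cTEC (adjusted p = 5.18e-10) and Mcam, an adhesion molecule, from 26.9 ± 3.90 to 10.9 ± 2.20 CPM in mTEClo (adjusted p = 0.000104). Anpep, an aminopeptidase, rose from 25.2 ± 4.98 to 58.5 ± 9.29 CPM in cTEC (adjusted p = 8.45e-06), and Angpt1, a ligand of vessels, rose from 17.0 ± 5.10 to 38.9 ± 3.98 CPM in mTEClo (adjusted p = 0.000179). Most pericyte genes were not called in mTEClo and cTEC, where Rgs5 fell.

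Among 19 fibroblast genes tested, 4 were higher and 7 lower in KO mTEChi, 4 and 6 in mTEClo, and 5 and 8 in cTEC, with medians of -0.18, -0.07 and -0.65. Serpinf1, a secreted serpin, fell from 55.7 ± 13.6 to 2.58 ± 0.921 CPM (adjusted p = 6.03e-10) and Fbn1, fibrillin, from 46.4 ± 10.4 to 9.34 ± 2.42 CPM in cTEC (adjusted p = 1.34e-07). Fbln1, a fibulin, rose there from 38.6 ± 5.07 to 113 ± 18.8 CPM (adjusted p = 7.76e-08), and the peptidase Dpp4 rose from 2.86 ± 0.579 to 20.6 ± 2.97 CPM in mTEClo (adjusted p = 2.15e-07). Fbln1 fell in mTEChi from 14.1 ± 3.06 to 7.10 ± 0.310 CPM (adjusted p = 0.000364). It also fell in mTEClo, from 46.4 ± 5.14 to 23.8 ± 3.07 CPM (adjusted p = 7.29e-05). The fibroblast factor Twist2 was too low to be tested and was at 0 in the 3 WT mTEClo libraries.

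Other matrix genes split in the same way, with 4 of 18 higher and 6 lower in KO mTEChi, 5 and 6 in mTEClo, and 5 and 9 in cTEC, and medians of -0.20, 0.10 and -0.37. In cTEC Col5a2, a chain of collagen V that regulates the diameter of collagen I fibrils, fell from 63.1 ± 10.7 to 2.47 ± 0.365 CPM (adjusted p = 3.44e-11). The collagen VI chains Col6a1 and Col6a2 also fell, Col6a1 from 417 ± 57.1 to 88.5 ± 4.50 CPM (adjusted p = 4.08e-10) and Col6a2 from 270.1 ± 38.6 to 55.9 ± 5.50 CPM (adjusted p = 1.20e-09). Both were called lower in mTEClo too (adjusted p = 4.84e-06 and 2.39e-06). In mTEChi Col6a1 rose from 38.7 ± 7.32 to 83.5 ± 13.8 CPM (adjusted p = 2.48e-05). Col6a2 rose there from 21.1 ± 3.43 to 34.4 ± 9.76 CPM (adjusted p = 0.00516). Ogn, osteoglycin, a proteoglycan of the same family as Dcn, was at 0.411 ± 0.369 CPM in WT mTEClo and at 21.6 ± 1.90 CPM in KO mTEClo (adjusted p = 1.04e-09). In cTEC it rose from 8.83 ± 1.60 to 30.3 ± 5.02 CPM (adjusted p = 4.76e-06). In mTEChi, where Dcn rose, Ogn fell from 4.95 ± 0.184 to 1.85 ± 0.465 CPM (adjusted p = 0.00256). In KO cTEC, Dcn and Ogn were higher and these 3 collagen chains lower, but not every gene of the list followed this split. The proteoglycan gene Bgn fell there from 11.5 ± 2.92 to 3.02 ± 0.558 CPM (adjusted p = 1.17e-05). Col12a1, another collagen gene, rose from 99.8 ± 9.18 to 183 ± 5.34 CPM (adjusted p = 5.56e-06).

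Of 18 collagen processing genes 3 were higher and 5 lower in KO mTEChi, 2 and 7 in mTEClo, and 5 and 10 in cTEC, with medians of 0.08, -0.31 and -0.58. Serpinh1, the collagen chaperone, fell from 342 ± 63.6 to 114 ± 8.07 CPM in mTEClo (adjusted p = 2.02e-06), where both chains of collagen I were called higher. In cTEC Loxl3, a cross-linking oxidase, fell from 15.5 ± 4.50 to 1.50 ± 0.567 CPM (adjusted p = 1.80e-08) and Pcolce, which enhances procollagen cleavage, from 25.96 ± 7.80 to 4.74 ± 0.801 CPM (adjusted p = 8.79e-08). P4ha3, a prolyl hydroxylase subunit, rose from 11.5 ± 1.32 to 61.9 ± 7.84 CPM in mTEClo (adjusted p = 2.16e-08).

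From the list of PDGF, SRF and TGF-beta genes 7 of 19 were higher and 7 lower in KO mTEChi, 3 and 6 in mTEClo, and 4 and 6 in cTEC, with medians of -0.17, -0.03 and 0.07. Ccn1, a matrix protein and textbook SRF target, fell from 2616 ± 346 to 899 ± 20.5 CPM in mTEClo (adjusted p = 8.06e-08). Smad4, the shared mediator of TGF-beta signals, fell from 195 ± 20.3 to 82.9 ± 3.06 CPM in mTEChi (adjusted p = 1.06e-07). Pdgfc, a ligand of Pdgfra, rose from 34.0 ± 12.6 to 151 ± 20.1 CPM in cTEC (adjusted p = 1.78e-07). Srf itself, named after its values were seen, fell from 60.95 ± 6.54 to 39.4 ± 5.77 CPM in mTEClo (adjusted p = 0.0124) and from 67.9 ± 12.6 to 32.8 ± 3.53 CPM in cTEC (adjusted p = 9.69e-05). In mTEChi Srf was not called (adjusted p = 0.490), and its cofactor Myocd was too low to be tested.

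**Figure D4:**
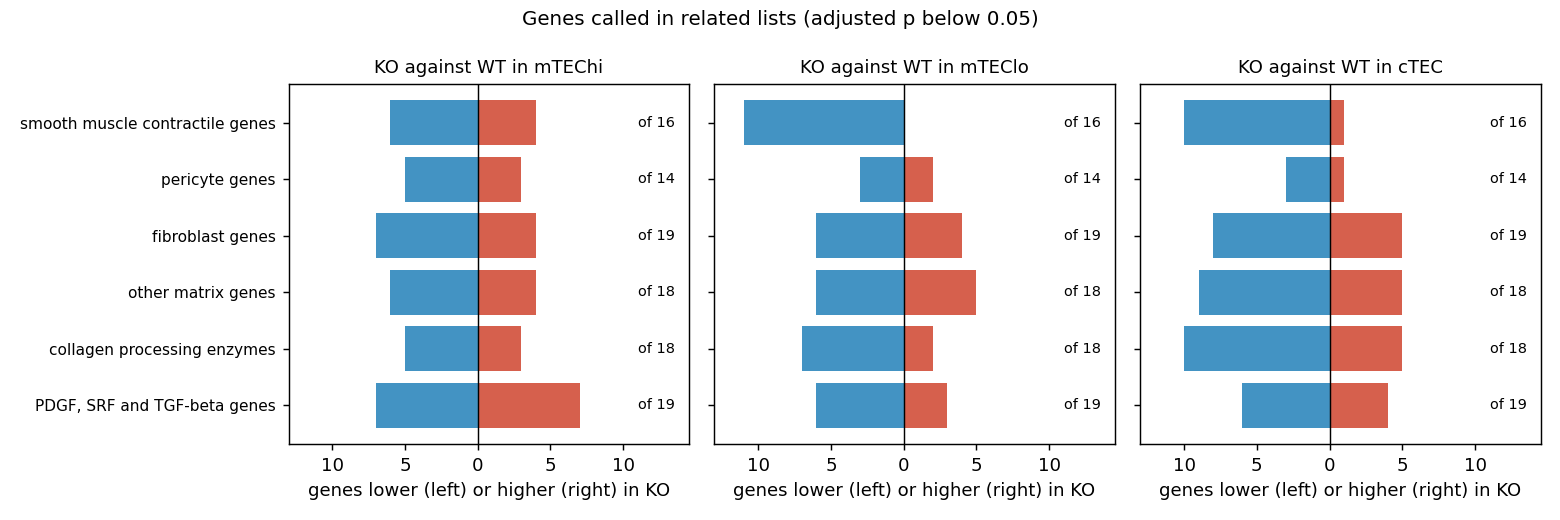
Bars count the genes of 6 related lists that were called lower (blue, to the left) or higher (red, to the right) in KO than in WT, with the number of genes tested at the right of each bar. Decreases outnumber increases for the smooth muscle contractile genes in mTEClo (11 against none) and cTEC (10 against 1), while the other lists have calls in both directions in every subset. Over all genes, 17.1%, 18.9% and 22.3% were called higher and 19.3%, 15.8% and 26.7% lower in mTEChi, mTEClo and cTEC.

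Markers of other cells that a thymic sort can hold moved between the groups too. Their counts of calls stand beside the same shares over all genes, 17.1% higher and 19.3% lower in mTEChi, 18.9% and 15.8% in mTEClo, and 22.3% and 26.7% in cTEC. The sum of 12 thymocyte markers was 104 ± 43.3 CPM in WT cTEC and 338 ± 96.7 CPM in KO cTEC, where 10 of the 12 rose, beside lower Col1a1 and Col3a1 and higher Dcn in the same comparison. The sum of 12 macrophage and dendritic cell markers fell from 1616 ± 32.8 to 913 ± 81.9 CPM in mTEChi and from 180 ± 37.0 to 43.3 ± 5.91 CPM in cTEC, most of it Lyz2, with 7 and 6 of 11 tested markers called lower. Endothelial markers summed to 65.8 ± 9.49 and 28.4 ± 3.81 CPM in WT and KO cTEC, with 5 of 11 tested lower, and to 74.3 ± 15.6 and 143 ± 16.8 CPM in mTEClo, with 4 of 11 higher. Tagln and Rgs5 fell in both of these subsets, and the part of endothelial cells in that was not tested.

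Mesothelial markers summed to 616 ± 204 CPM in WT and 302 ± 89.0 CPM in KO cTEC, and to 385 ± 17.6 and 158 ± 15.8 CPM in mTEClo, most of it Msln, with Wt1 at 0 in the 6 cTEC libraries. In mTEChi WT and KO libraries had mesothelial sums of 374 ± 49.6 and 206 ± 51.1 CPM. The calls did not all follow the sums, with 2 of 6 markers higher and 2 lower in mTEClo. In cTEC 1 of 6 was lower and none higher, and in mTEChi 3 were lower and none higher. Upk1b rose in mTEClo from 4.94 ± 2.34 to 13.3 ± 4.69 CPM (adjusted p = 0.00937). Striated muscle markers summed to 100.2 ± 9.27 and 176 ± 17.3 CPM in WT and KO mTEChi, where Acta2 rose, with 2 of 8 higher and 1 lower, and Des, which the smooth muscle list also holds, rose from 36.5 ± 6.15 to 94.9 ± 4.95 CPM (adjusted p = 3.51e-05). They summed to 105 ± 9.83 and 63.5 ± 15.4 CPM in mTEClo, with 3 of 8 lower, and to 54.3 ± 12.7 and 15.2 ± 3.03 CPM in cTEC, with 5 of 8 lower. None was called higher in these subsets. Myod1 was at 0 in all mTEClo and cTEC libraries, while Myog, of the same list, fell from 13.9 ± 3.32 to 0.266 ± 0.0567 CPM in cTEC (adjusted p = 4.99e-11). Schwann cell markers summed to 102 ± 6.06 and 85.7 ± 9.41 CPM in mTEChi, 41.2 ± 5.32 and 64.2 ± 2.66 CPM in mTEClo, and 65.5 ± 11.02 and 37.5 ± 3.07 CPM in cTEC. The endothelial sum in mTEChi was 129 ± 7.62 and 180.4 ± 6.85 CPM, the thymocyte sum was 85.8 ± 9.51 and 97.8 ± 8.65 CPM in mTEChi and 37.2 ± 6.38 and 77.7 ± 6.30 CPM in mTEClo, and the macrophage and dendritic cell sum in mTEClo was 146 ± 9.88 and 129 ± 14.1 CPM, WT first in each pair. Of 7 Schwann cell markers 1 was called higher and 2 lower in mTEChi, 3 and none in mTEClo, and 2 and 2 in cTEC. Among 11 endothelial markers tested, 4 were higher and 2 lower in mTEChi. Of 12 thymocyte markers 1 was higher and 2 lower in mTEChi, and 3 higher and none lower in mTEClo. Among 11 macrophage and dendritic cell markers tested, 1 was higher and 1 lower in mTEClo. The part of any of these cells in the changes of the 10 genes was not tested.

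Across the 18 libraries the members went together only in part. Pairs of the 10 genes had Pearson r of log2 CPM between 0.87 for Pdgfrb and Col1a1 and -0.82 for Acta2 and Col1a1, and Tagln with Acta2 had 0.50. Among up to 13042 genes with a mean of at least 5 CPM, the genes most like Tagln were Tiam1 (r = 0.98), Igf1r and Ralgapa1, and those most like Rgs5 were Csmd2 (r = 0.98), Nipsnap1 and Diaph2. For Acta2 they were Htra1 (r = 0.96), Clca2 and Cyp2j9, for Myh11 Cyth3 (r = 0.89), Cers4 and Cd274, and for Dcn Wls (r = 0.98), Txnip and Col12a1. For Pdgfrb they were Serpinb9b (r = 0.97), Tbx21 and Col17a1, and for Pdgfra Adgrl3 (r = 0.82), Stx3 and Tas2r129. The collagen genes were most like Sel1l, Fgl2 and Arsb for Col1a1 (r = 0.92), Dcdc2a, Rybp and Col23a1 for Col1a2 (r = 0.81), and Thrap3, Os9 and Arrb1 for Col3a1 (r = 0.96). None of the 30 places was taken by another member of the set. The libraries share mouse pools and group structure, so these values describe likeness of pattern over the 6 groups.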

How the data were processed

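RNA-seq gene counts of 18 sorted mouse thymic epithelial libraries were used as deposited. The authors counted reads per gene with featureCounts on the mm10 genome, per the submitters' processing notes; the aligner, the featureCounts version and the handling of reads that match several genes are not given in the sources used here. Libraries were made with SMART-Seq v4 and Nextera XT, per the labels' protocols, which do not record strand. Gene lengths in base pairs, deposited beside the counts, gave CPM per kb. Library totals ran from 3554089 to 20054360 counts.

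Genes passing edgeR's filterByExpr (minimum count 10) were scaled by TMM and expressed as CPM and fitted with edgeR 4.0.16 (R 4.3.3, limma 3.58.1) as 6 group means over 18 libraries, leaving 12 residual degrees of freedom. KO was compared with WT in each subset, subsets within each genotype, and KO effects between subsets, with edgeR's quasi-likelihood test and Benjamini-Hochberg adjustment at 0.05. Alternatives were RLE scaling, DESeq2 1.42.0, no filter, thinning every library to 3554089 counts (equal depth), fitting only the compared groups, the mouse pool as a block, and leaving out each library. The scripts were tested on simulated data. The members and lists were chosen with earlier results of these data known. In addition to Kat7 and the 10 members, up to 4 genes per list were named, those with the smallest adjusted p in any KO comparison among genes called, with no overlap of libraries and a mean of at least 5 CPM, and per member the 3 genes with the highest Pearson r of log2 CPM (prior count 2) over the libraries. Other genes were named after their values were seen: the actins Actg2 and Acta1, markers at 0 or leading a list (Des among them), Srf, Myocd, Bgn and, among the matrix genes, Col12a1. A gene of these lists is not reported here. The 1312 genes without a symbol stayed in the fit.

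Libraries of the same mouse pool come from the same mice, per the labels, which pairs the subsets. Deviations from group means correlated between -0.000944 and 0.239 (median 0.0602, 18 pairs) within a pool and between -0.181 and 0.0577 (36 pairs) across pools. Replicates differed by more than sampling noise, with a chi-square per gene of 3.65 to 50.3. The main p-values rest on the spread between libraries of the same group, each from a different mouse pool, and this spread was shared over all groups. That fit left out the pairing of subsets by pool, which entered only in the alternative with the pool as a block.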

Additional observations from a re-analysis of the deposited data

Results flagged for a closer look

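The effect of the KO on the 10 genes differed between subsets in 19 tested differences, each a difference of log2 fold changes from edgeR's quasi-likelihood test with Benjamini-Hochberg adjustment. Between mTEChi and mTEClo the difference was 2.84 for Tagln, 2.40 for Acta2, 1.95 for Rgs5, 1.17 for Myh11 and 1.12 for Dcn, the change being more positive in mTEChi. It was -2.58 for Col1a1 and -3.53 for Col1a2, whose collagen I chains fell in mTEChi and rose in mTEClo. Between mTEChi and cTEC the difference was 2.23 for Tagln, 1.17 for Acta2, 1.17 for Myh11, 1.60 for Rgs5 and 2.796 for Col3a1. Between mTEClo and cTEC it was -0.62 for Tagln, -1.23 for Acta2 and -1.07 for Dcn, and 1.89 for Pdgfrb, 3.33 for Col1a1, 2.93 for Col1a2 and 3.48 for Col3a1. Acta2, Col1a1 and Col1a2 were called in opposite directions in mTEChi and mTEClo. With single libraries left out, the Col1a2 call was lost in 4 of 6 runs in mTEChi and 3 of 6 in mTEClo. The Col1a1 call in mTEClo was lost in 2 of 6 runs. Between mTEClo and cTEC, the differences of Tagln and Pdgfrb lost their calls in 3 and 2 of 12 such runs.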

How the results depend on the processing

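The number of the 10 genes called in each of the 12 comparisons stayed within 1.5 times its value under every alternative run. When single libraries were left out, the count ranged from 4 to 5 for KO against WT in mTEChi (5 with all libraries), 5 to 7 in mTEClo (7) and 8 to 10 in cTEC (9), and from 4 to 5 for mTEClo against cTEC in KO (6). Single genes were followed for all KO comparisons and, between subsets and between KO effects, for genes called there. Of 539 such values under the other alternatives, 7 lost and 5 gained a call and none changed direction. Of 684 values with 1 library left out, 39 lost and 2 gained a call and 3 changed direction, the last all in differences that were not called. Calls gained by genes outside these values show in the counts alone, up to 10 for mTEChi against cTEC in WT (9 with all libraries), 9 for mTEClo against cTEC in WT (7), 9 for mTEChi against mTEClo in KO (8), 6 for KO effects between mTEChi and cTEC (5) and 8 between mTEClo and cTEC (7). The 3 changes of direction were in KO against WT. Pdgfra in mTEChi had a log2 fold change of 0.0878 without WT pool 3 and 0.0968 without KO pool 5, over a range of -0.552 to 0.0968. Col3a1 in mTEClo had a log2 fold change of 0.0630 without WT pool 1, over a range of -0.468 to 0.0630. The cause was not tested. The share of counts on the 10 genes in KO cTEC was 0.256% of the TMM-scaled library size, against 0.243% of the total.

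With the mouse pool as a replicate block, which can enter only comparisons within pools, 7, 9 and 8 of 10 genes were called between subsets in WT (mTEChi against mTEClo, mTEChi against cTEC, mTEClo against cTEC), 9, 9 and 8 in KO, and 7, 5 and 7 for the differences of KO effects. Beside the 4 calls gained that are given with their results, the block changed no other call. Each KO pool is a different pool of mice from each WT pool, so no paired analysis of KO against WT was possible. Some values rest on few counts per library, 4 to 12 for Pdgfra in WT mTEChi and 2 to 30 for Col1a2 in KO mTEChi.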
